A study of Homo sapiens with 9 samples.

Results

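The 8 genes CDKN1A, MDM2, FAS, BAX, BBC3, ZMAT3, SESN1 and TP53INP1, established transcriptional targets of the tumour suppressor p53, were followed across 4 RNA-seq libraries of a human cell line. They were taken by symbol from the authors' isoform identifiers. All 8 had a locus among the 22266 loci of the gene table, and together they held 90 of the 199618 isoforms of the isoform table. The cells were of the b-39 subline of HEK293 Flp-In T-Rex, an embryonic kidney line, and every library came from cells with a β-globin reporter, carrying a premature stop codon (PTC39), in the Flp-In locus. The siRNA treatments were UPF1 with XRN1 (UPF1/XRN1), SMG6 with XRN1 (SMG6/XRN1), XRN1 alone (XRN1), and an EGFP siRNA (control). Each treatment was sequenced as 1 library of cytoplasmic poly(A)+ RNA, so no difference given here has a replicate check, no test was possible and no p-value was computed. No dose or time of the siRNA treatment is given in the sources used here, and only 1 subline was used.

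p53 is a DNA-binding transcription factor that accumulates when DNA is damaged or ribosome production is disturbed. Its targets arrest the cell cycle (CDKN1A), change redox balance and growth signalling (SESN1), drive apoptosis (FAS, BAX, BBC3, TP53INP1), act on RNA (ZMAT3) and remove p53 itself (MDM2, in a feedback loop). HEK293 cells were transformed with adenovirus DNA and express its E1A and E1B proteins, of which an E1B protein binds p53 and represses its activity as a transcription factor. The siRNAs were aimed at the machinery of nonsense-mediated decay (NMD): UPF1 is the RNA helicase at its centre, SMG6 the endonuclease that cuts its targets, and XRN1 the 5'-to-3' exonuclease that degrades decapped or cut RNA. RNA-seq served the study to find isoforms subject to NMD and to measure their levels.

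The levels of the mRNAs aimed at followed the labels in part at most. XRN1 mRNA stood at 6.50 FPKM in the library labelled UPF1/XRN1, 10.1 in SMG6/XRN1, 7.31 in XRN1 and 7.80 in control. SMG6 mRNA stood at 7.66 FPKM in the library labelled SMG6/XRN1, 5.55 in XRN1 and 4.77 in control, so it was highest of these where it was aimed at. UPF1 mRNA stood at 8.59 FPKM in the library labelled UPF1/XRN1, 11.4 in SMG6/XRN1, 11.6 in XRN1 and 6.71 in control. It was lower in UPF1/XRN1 than in XRN1, with a ratio of estimated reads of 0.636 (0.591 to 0.684), and higher than in control. The names used below are those labels, and each direction is one between labelled libraries. Estimated depth was 31476526 to 35983475 reads a library. Of the HEK293 markers, KRT8, KRT18 and VIM were present, with a summed level, PAX2 included, of 616, 623, 629 and 646 FPKM in UPF1/XRN1, SMG6/XRN1, XRN1 and control. PAX2, a renal lineage marker, was at 0.19 to 0.30 FPKM. Of 8 markers of blood, endothelial, fibroblast, liver, islet and glial cells, 5 were in the gene table and none reached a mean of 1 FPKM. Their summed level was 1.04, 1.19, 0.960 and 0.750 FPKM in the same order of libraries.

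The p53 target genes differed in the order of the libraries, and the orders overlapped. All but ZMAT3 and TP53INP1 were higher in UPF1/XRN1 and SMG6/XRN1 than in XRN1 and control. Against control that difference was larger for CDKN1A, FAS and BBC3 than for MDM2, BAX and SESN1. MDM2, BAX, ZMAT3 and TP53INP1 were lowest in XRN1, and of these ZMAT3 and TP53INP1 were highest in control. SESN1 lay within 20.7 to 25.6 FPKM in all 4 libraries. MDM2 had the highest level per length of the 8 in every library and TP53INP1 the lowest. In control the order ran MDM2, SESN1, CDKN1A, BAX, FAS, ZMAT3, BBC3, TP53INP1. CDKN1A (13.1 FPKM) and BAX (12.6 FPKM) were neighbours there, and with 1 library no spread can tell them apart.

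**Figure D1:**
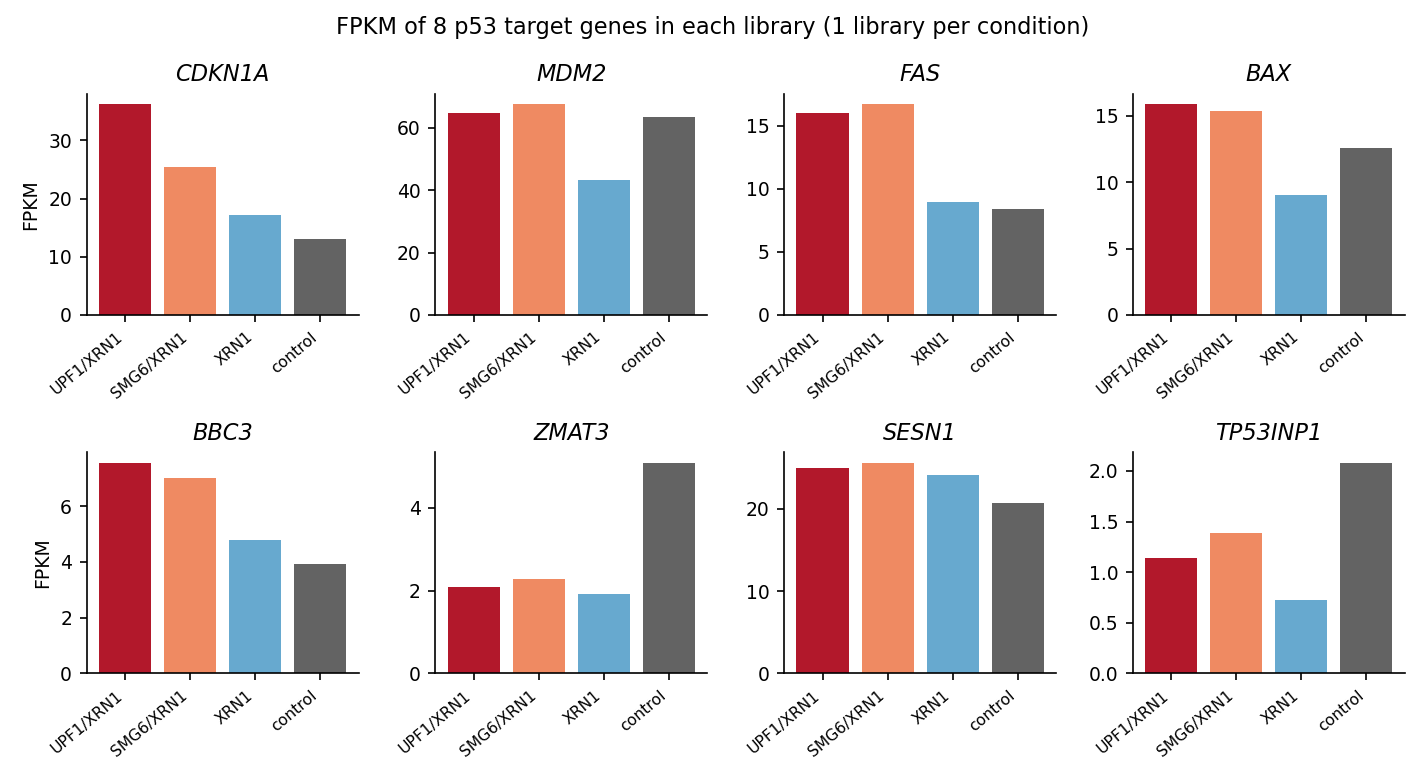
FPKM of each of the 8 genes (y axis, linear, starting at 0, with its own range in each panel) in the 4 libraries, 1 bar per library and no error bars, since each treatment had 1 library. CDKN1A had 36.2 FPKM in UPF1/XRN1 against 13.1 in control, and ZMAT3 had 1.93 to 2.28 FPKM in the 3 depleted libraries against 5.09 in control.

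Changes per gene are given as log2 of the ratio of FPKM + 1, which understates the change of low genes, and a change of at least 2-fold on that scale is called. Ratios of estimated reads, scaled by the authors' spike-in factor, are given beside them with exact conditional binomial intervals at 95%, which cover counting error only. The total spike-in normalised signal was 1.10, 1.21 and 1.10 times that of control in UPF1/XRN1, SMG6/XRN1 and XRN1. The ratios of reads are not adjusted for that, so a ratio over control near these values is no more than that of the whole library. All 8 genes passed the filter of a mean of at least 1 FPKM, as did 12164 genes in all. In such bulk RNA, a change in every cell and a change in some of the cells cannot be told apart.

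In XRN1 over control, 0 of the 8 genes were called higher, where 4.11% of all tested genes were, and 1, ZMAT3, was called lower, where 0.37% of all tested genes were. The median log2 change of the 8 was -0.18, against 0.14 for all tested genes, and 4 of the 8 were above 0, where 68.2% of all tested genes were. The median turned to 0.14 without ZMAT3 and TP53INP1, the genes with a mean under 5 FPKM. In SMG6/XRN1 over XRN1, 0 of the 8 were called higher (1.36% of all tested genes) and 0 lower (0.173%). All 8 had log2 changes above 0, as did 67.5% of all tested genes, with a median of 0.50 against 0.12. SESN1 was at -0.03 once the median of all tested genes was subtracted. In UPF1/XRN1 over XRN1, 1 of the 8, CDKN1A, was called higher (2.52% of all tested genes) and 0 lower (0.534%). All 8 were again above 0, as were 52.1% of all tested genes, with a median of 0.57 against 0.02. These 3 comparisons share the XRN1 library, which divides in both co-depletion comparisons and is divided in XRN1 over control.

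Against control, the XRN1 library does not enter. SMG6/XRN1 over control called 0 of the 8 higher (9.3% of all tested genes) and 0 lower (0.263%), with a median log2 change of 0.28 against 0.25 for all tested genes. UPF1/XRN1 over control called CDKN1A alone higher (10.2% of all tested genes) and 0 lower (0.575%), with a median of 0.29 against 0.15. Of the 8 genes, 6 were above 0 in SMG6/XRN1 over control (75.3% of all tested genes) and 6 in UPF1/XRN1 over control (62.2%), ZMAT3 and TP53INP1 being below 0 in each.

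**Figure D2:**
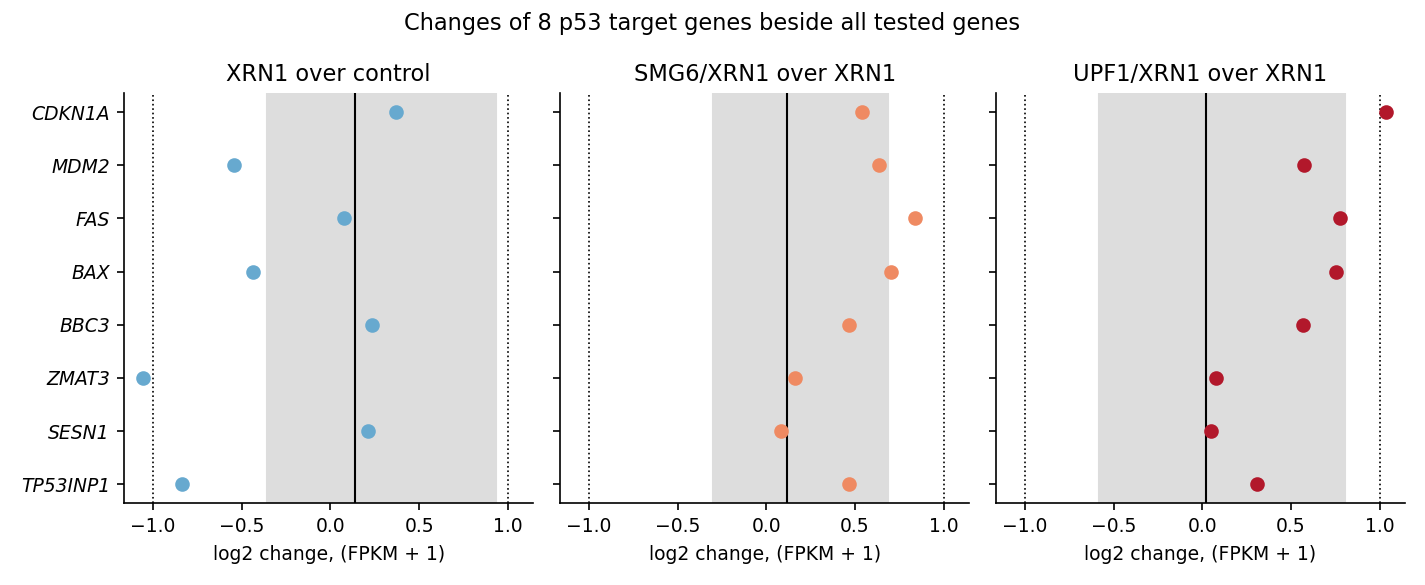
Log2 change of FPKM + 1 (x axis) of the 8 genes (points) in 3 comparisons that share the XRN1 library. The solid line is the median of the 12164 tested genes, the grey band spans their 5th to 95th percentile and the dotted lines mark 2-fold. In UPF1/XRN1 over XRN1, CDKN1A lies past the 2-fold line at 1.04 while SESN1 lies at 0.05.

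CDKN1A encodes p21, the inhibitor of cyclin-dependent kinases through which p53 halts the cell cycle. Its level was 36.2 FPKM in UPF1/XRN1, 25.4 in SMG6/XRN1, 17.2 in XRN1 and 13.1 in control. It was thus highest in UPF1/XRN1 and lowest in control, and it was the gene called higher in UPF1/XRN1. The log2 change was 1.04 in UPF1/XRN1 over XRN1, where the ratio of reads was 2.25 (2.11 to 2.40), and 1.40 in UPF1/XRN1 over control, with a ratio of 2.99 (2.79 to 3.20). In SMG6/XRN1 over XRN1 the log2 change was 0.54, with a ratio of 1.57 (1.47 to 1.69). In XRN1 over control it was 0.37, with a ratio of 1.33 (1.22 to 1.44).

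Nearly all of the CDKN1A signal lay in 1 isoform, which matches ENST00000244741, a transcript of 3 exons that codes for p21. Its spike-in normalised signal was 11716 in UPF1/XRN1, 8076 in SMG6/XRN1, 5111 in XRN1 and 4059 in control, or 94.8% to 100% of the gene's signal. A second isoform, matching ENST00000405375 with the same coding length of 492 bases, had signals of 407, 400 and 275 in UPF1/XRN1, SMG6/XRN1 and XRN1 and was listed at 0 in control. The authors' table marks that second isoform as an NMD candidate and not the first. Tested on the file, the mark was TRUE exactly where both co-depletions were above 0 and over 2 times control, so the first isoform missed it through SMG6/XRN1, where its ratio of reads over control was 1.99 (1.84 to 2.15). None of the 5 CDKN1A isoforms has the NMD type in GENCODE 29, the reference annotation that transcript types are taken from here.

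Among 7834 genes (mean of 5 FPKM or more, above 0 in every library), the genes whose 3 log2 changes against control lay nearest to those of CDKN1A, by Euclidean distance over 4 libraries, were PDRG1 (0.0369), PPIP5K1 (0.0784) and CLUHP3 (0.0844). PDRG1 had 38.7 FPKM in UPF1/XRN1, 26.2 in SMG6/XRN1, 18.3 in XRN1 and 13.8 in control. It has the order and nearly the levels of CDKN1A.

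SESN1 encodes sestrin 1, a stress protein that restrains mTORC1 signalling. Its level was 24.9 FPKM in UPF1/XRN1, 25.6 in SMG6/XRN1, 24.1 in XRN1 and 20.7 in control. The gene as a whole varied little, with log2 changes of 0.05 in UPF1/XRN1 over XRN1, 0.08 in SMG6/XRN1 over XRN1 and 0.21 in XRN1 over control. Its protein-coding isoforms that match the reference begin at 3 starts and had different orders. Another 2 isoforms with signal, of the retained intron type, begin elsewhere and had at most 26.4 in any library. An isoform with a junction outside the reference had 208 in UPF1/XRN1, 266 in SMG6/XRN1, 163 in XRN1 and 140 in control. Its ratio of reads in SMG6/XRN1 over XRN1 was 1.65 (1.10 to 2.52).

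The isoform from the middle start, ENST00000356644, carried most of the signal, with 7982 in UPF1/XRN1, 8942 in SMG6/XRN1, 7991 in XRN1 and 5959 in control. It was lowest in control, with a ratio of reads of 1.34 (1.25 to 1.43) in XRN1 over control. The isoform from the upstream start, ENST00000436639, had 2893 in UPF1/XRN1, 2317 in SMG6/XRN1, 1750 in XRN1 and 2678 in control. That one was lowest in XRN1, with a ratio of 0.653 (0.578 to 0.737) in XRN1 over control and of 1.65 (1.47 to 1.87) in UPF1/XRN1 over XRN1. The isoform from the downstream start, ENST00000302071, had 138 in UPF1/XRN1, or about 37 reads, and was listed at 0 in the other 3 libraries. These isoforms share exons, and the estimate divides shared reads among them.

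The windows before the RefSeq starts of 7 of the 8 genes, 250 bases upstream to 50 downstream in GRCh38.p14, were searched for a pair of p53 cores. A core is a C, an A or T at each of the 2 middle places, and a G, and the second core follows the first after 6 bases of any kind. That set reads the same on both strands. It was found in 2 of 15 windows, 1 of FAS and 1 of SESN1, that is in 13.3%, against 4.79% of 35116 windows of all genes. Each of these windows also held a 10-base p53 half-site, which overlaps the core pair, and 6.63% of all windows held one. TP53INP1 is named only. The SESN1 window is chr6:109008939-109009238, minus strand, and belongs to the downstream start of ENST00000302071. It is shown because it held the core pair, which is in capitals with its 3 flanking bases on each side:
SESN1 window: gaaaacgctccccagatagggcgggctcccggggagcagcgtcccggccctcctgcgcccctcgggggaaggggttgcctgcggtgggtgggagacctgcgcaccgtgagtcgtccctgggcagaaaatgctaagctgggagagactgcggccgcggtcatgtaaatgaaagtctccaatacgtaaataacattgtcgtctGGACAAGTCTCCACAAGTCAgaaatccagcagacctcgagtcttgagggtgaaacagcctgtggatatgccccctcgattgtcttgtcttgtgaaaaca
The capitals begin 49 bases before the start. A match of these letters is a description of the window and not a measured site.

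ZMAT3 encodes a zinc finger protein that binds RNA and acts on splicing and mRNA stability. Its level was 2.09 FPKM in UPF1/XRN1, 2.28 in SMG6/XRN1, 1.93 in XRN1 and 5.09 in control. It was lower in each of the 3 depleted libraries than in control, and these 3 lay close together. The log2 change was -1.06 in XRN1 over control, the 1 called fall among the 8, with a ratio of reads of 0.383 (0.351 to 0.418). It was -0.89 in SMG6/XRN1 over control and -0.98 in UPF1/XRN1 over control, short of 2-fold on the FPKM + 1 scale, while the ratios of reads were 0.483 (0.444 to 0.524) and 0.440 (0.406 to 0.477). Over XRN1 the changes were 0.16 in SMG6/XRN1 and 0.08 in UPF1/XRN1.

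The lower level of ZMAT3 was unequal between its 3 isoforms with signal. The one matching ENST00000311417 had 2297 in UPF1/XRN1, 2434 in SMG6/XRN1, 1925 in XRN1 and 4141 in control, a ratio of reads of 0.465 (0.416 to 0.518) in XRN1 over control. An isoform with a junction outside the reference had 336 in UPF1/XRN1, 246 in SMG6/XRN1, 910 in XRN1 and 2671 in control. Its ratios over control were 0.125 (0.0995 to 0.156) in UPF1/XRN1, 0.0923 (0.0694 to 0.121) in SMG6/XRN1 and 0.341 (0.292 to 0.397) in XRN1. The one matching ENST00000432729 had 627, 891 and 589 in UPF1/XRN1, SMG6/XRN1 and control and was listed at 0 in XRN1, and such a 0 can be a failed estimate. None of the ZMAT3, SESN1 or TP53INP1 isoforms carries the authors' NMD mark.

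MDM2 encodes the ubiquitin ligase that marks p53 for destruction. Its level was 64.7 FPKM in UPF1/XRN1, 67.6 in SMG6/XRN1, 43.1 in XRN1 and 63.4 in control. It stood apart in XRN1 only, and the other 3 libraries lay within 63.4 to 67.6 FPKM. The log2 change was -0.54 in XRN1 over control, with a ratio of reads of 0.755 (0.721 to 0.791). In UPF1/XRN1 over XRN1 it was 0.57, with a ratio of 1.41 (1.35 to 1.48), and in SMG6/XRN1 over XRN1 it was 0.64, with a ratio of 1.46 (1.40 to 1.53). Against control the changes were 0.03 in UPF1/XRN1 and 0.09 in SMG6/XRN1. Both were below 0 once the median of all tested genes was subtracted, at -0.12 in UPF1/XRN1 and -0.16 in SMG6/XRN1, and no direction is read from them.

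MDM2 had 37 isoforms in the table, of which 20 had signal in some library. Its leading isoform, which matches ENST00000350057 and codes for protein, had 7479 in UPF1/XRN1, 8051 in SMG6/XRN1, 5327 in XRN1 and 6929 in control. Isoforms that fully match transcripts of the GENCODE type nonsense-mediated decay held a small part of the gene's signal and followed another order. Their summed signal was 338 in UPF1/XRN1, 444 in SMG6/XRN1, 217 in XRN1 and 83.6 in control, lowest in control. The ratio of reads was 2.02 (1.44 to 2.86) in SMG6/XRN1 over XRN1, 1.55 (1.09 to 2.21) in UPF1/XRN1 over XRN1 and 2.58 (1.54 to 4.45) in XRN1 over control. One of them, ENST00000542502 with a reading frame of 252 bases, had 98.8 in UPF1/XRN1 and 271 in SMG6/XRN1, or about 27 and 64 reads, and was listed at 0 in XRN1 and control. The sum over XRN1 thus leans on that isoform. The largest of them by mean signal, ENST00000536089, had 188 in UPF1/XRN1, 95.1 in SMG6/XRN1, 169 in XRN1 and 38.0 in control. Its ratio of reads was 0.550 (0.313 to 0.942) in SMG6/XRN1 over XRN1 and 1.12 (0.727 to 1.72) in UPF1/XRN1 over XRN1. The structures of 12 MDM2 isoforms with junctions outside the reference are not given, so their reading frames are unknown here. The largest of these held 36.7% to 44.7% of the gene's signal. Its signal was 6648 in UPF1/XRN1, 6788 in SMG6/XRN1, 5649 in XRN1 and 6687 in control. The reference transcript listed for it, ENST00000393417, is of the nonsense-mediated decay type. Whether this isoform is subject to NMD was not tested.

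The genes nearest to MDM2 in their 3 log2 changes against control were HIST1H2AH (0.0844), DZIP3 (0.109) and FAM111B (0.113). FAM111B had 49.2 FPKM in UPF1/XRN1, 50.7 in SMG6/XRN1, 35.1 in XRN1 and 50.4 in control. ZMAT3 had a mean under 5 FPKM and was not compared in that way.

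FAS encodes the death receptor CD95 of the cell surface. Its level was 16.0 FPKM in UPF1/XRN1, 16.7 in SMG6/XRN1, 8.91 in XRN1 and 8.41 in control. Both co-depleted libraries were high and the other 2 low. The log2 change was 0.78 in UPF1/XRN1 over XRN1, with a ratio of reads of 1.805 (1.66 to 1.96), and 0.84 in SMG6/XRN1 over XRN1, with a ratio of 1.97 (1.81 to 2.14). Against control the changes were 0.85 in UPF1/XRN1 and 0.91 in SMG6/XRN1. XRN1 over control gave 0.07 and, once the median of all tested genes was subtracted, -0.07.

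Intron 1 of FAS holds both a RefSeq start and a p53 core pair. The window of that start is chr10:88991181-88991480 in GRCh38.p14, plus strand, and it is shown because it held the core pair. The capitals mark the core pair with its 3 flanking bases on each side, chr10:88991309-88991328:
FAS window: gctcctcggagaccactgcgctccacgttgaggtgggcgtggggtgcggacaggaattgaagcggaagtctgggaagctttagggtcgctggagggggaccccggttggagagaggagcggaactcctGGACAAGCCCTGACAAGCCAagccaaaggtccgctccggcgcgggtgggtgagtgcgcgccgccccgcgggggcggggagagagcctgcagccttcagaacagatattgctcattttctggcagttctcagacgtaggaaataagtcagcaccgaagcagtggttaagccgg
The capitals begin 122 bases before the RefSeq start and 21 bases after the start of ENST00000313771, the leading isoform from the intron.

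The 6 isoforms with a first exon in intron 1, 5 of them with signal, summed to 586 in UPF1/XRN1, 596 in SMG6/XRN1, 183 in XRN1 and 145 in control. Both co-depleted libraries were above the other 2. The ratio of reads was 3.23 (2.30 to 4.60) in UPF1/XRN1 over XRN1 and 3.27 (2.32 to 4.68) in SMG6/XRN1 over XRN1, against 1.24 (0.790 to 1.97) in XRN1 over control. The 9 reference-matching isoforms from the upstream start summed to 2133 in UPF1/XRN1, 2184 in SMG6/XRN1, 1141 in XRN1 and 889 in control. Their ratios over XRN1 were lower, at 1.87 (1.62 to 2.16) in UPF1/XRN1 and 1.91 (1.65 to 2.22) in SMG6/XRN1. The isoforms from intron 1 that have signal are of the GENCODE type processed transcript, with no annotated coding sequence.

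Exon 6 of FAS, chr10:89010753-89010815 in GRCh38 and 63 bases long, codes for the segment that anchors the receptor in the membrane, and its skipping is known to give a soluble form. The exon with 20 bases on either side (exon in capitals) and the junction that skips it (exon 7 in capitals), both read from GENCODE 29 transcripts, show what separates the 2 forms:
FAS exon 6 with flanks: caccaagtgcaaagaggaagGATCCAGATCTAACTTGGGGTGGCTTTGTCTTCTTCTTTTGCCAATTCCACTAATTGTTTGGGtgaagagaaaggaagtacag
FAS junction of exons 5 and 7: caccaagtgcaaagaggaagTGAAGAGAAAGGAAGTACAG
Among reference-matching isoforms, the 10 with exon 6 summed to 2493 in UPF1/XRN1, 2569 in SMG6/XRN1, 1055 in XRN1 and 955 in control. The 3 that skip it summed to 226 in UPF1/XRN1, 211 in SMG6/XRN1, 262 in XRN1 and 79.8 in control. The exon 6 sum includes processed transcripts also counted in the intron 1 sum, and both sums include isoforms of the nonsense-mediated decay type. The sums are thus not amounts of the membrane and soluble receptor. The 2 sums were ordered differently. The exon 6 sum had ratios over XRN1 of 2.36 (2.04 to 2.73) in UPF1/XRN1 and 2.43 (2.10 to 2.82) in SMG6/XRN1. For the skipped sum they were 0.862 (0.598 to 1.24) and 0.807 (0.547 to 1.19), intervals that include 1. In XRN1 over control the skipped sum differed, at 3.25 (1.96 to 5.60), against 1.11 (0.926 to 1.32) for the exon 6 sum. Of protein-coding isoforms in the exon 6 sum, ENST00000355740 had ratios over XRN1 of 2.04 in UPF1/XRN1 and 2.42 in SMG6/XRN1. ENST00000355279 had 1.35 and 0.840, with intervals that include 1. ENST00000357339, which skips the exon and codes for protein, had 0.749 and 0.743, also with intervals that include 1. In XRN1 over control ENST00000355740 stood at 1.63 (1.26 to 2.12), ENST00000355279 at 0.941 (0.653 to 1.35) and ENST00000357339 at 3.25 (1.96 to 5.60). The largest FAS isoform, with 3750 in UPF1/XRN1, 4272 in SMG6/XRN1, 2259 in XRN1 and 2226 in control, has a junction outside the reference, so whether it holds exon 6 is not known here and it is in neither sum.

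FAS isoforms of the GENCODE type nonsense-mediated decay summed to 314 in UPF1/XRN1, 242 in SMG6/XRN1, 1.08 in XRN1 and 161 in control. Their low point was XRN1, below the value of 1 read, and not control. One of them, ENST00000484444, had 116 in UPF1/XRN1 and 88.1 in SMG6/XRN1, or about 31 and 21 reads, and was listed at 0 in XRN1 and control. Against control the ratio of reads of the sum was 1.93 (1.32 to 2.87) in UPF1/XRN1 and 1.497 (0.987 to 2.29) in SMG6/XRN1.

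BAX encodes the protein that opens pores in the outer membrane of mitochondria. Its level was 15.9 FPKM in UPF1/XRN1, 15.3 in SMG6/XRN1, 9.02 in XRN1 and 12.6 in control, lowest in XRN1 as for MDM2. The log2 change was 0.75 in UPF1/XRN1 over XRN1, with a ratio of reads of 1.96 (1.72 to 2.23), and 0.70 in SMG6/XRN1 over XRN1, with a ratio of 1.91 (1.68 to 2.18). In XRN1 over control it was -0.44, with a ratio of 0.771 (0.670 to 0.886).

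Most of the BAX signal was assigned to ENST00000293288, an isoform that keeps intron 5, chr19:48960915-48961531 in GRCh38, 617 bases, and so codes for another C-terminus than the common form. The letters at this boundary in the 2 forms are shown, with those after exon 5 in capitals:
BAX exon 5 read into intron 5: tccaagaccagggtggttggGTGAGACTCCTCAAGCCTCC
BAX junction of exons 5 and 6: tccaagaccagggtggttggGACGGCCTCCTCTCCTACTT
The isoform that keeps the intron had 2455 in UPF1/XRN1, 2373 in SMG6/XRN1, 1145 in XRN1 and 1363 in control, which is 88.0%, 87.1%, 80.3% and 73.7% of the gene's signal in the same order. Its ratios over XRN1 were 2.14 (1.86 to 2.47) in UPF1/XRN1 and 2.07 (1.79 to 2.40) in SMG6/XRN1. The 7 isoforms with intron 5 spliced out, 5 of them with signal, summed to 302 in UPF1/XRN1, 303 in SMG6/XRN1, 266 in XRN1 and 471 in control. They were highest in control, with ratios over XRN1 of 1.13 (0.804 to 1.58) in UPF1/XRN1 and 1.13 (0.796 to 1.60) in SMG6/XRN1. That sum includes isoforms of the retained intron type. The coding isoform ENST00000345358, whose junction is shown, had 116 in UPF1/XRN1, 136 in SMG6/XRN1, 167 in XRN1 and 280 in control. Its ratios over XRN1 were 0.695 (0.421 to 1.13) and 0.819 (0.499 to 1.33) in the 2 co-depletions, and over control 0.410 (0.260 to 0.632) and 0.483 (0.309 to 0.742). The higher gene level in the co-depleted libraries thus lay in the form that keeps the intron. Both forms were estimated from shared exons, and reads over the intron were not seen here as such.

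BBC3 encodes PUMA, a BH3-only protein that releases BAX from its inhibitors. Its level was 7.56 FPKM in UPF1/XRN1, 6.99 in SMG6/XRN1, 4.78 in XRN1 and 3.92 in control. The 2 co-depleted libraries were above the other 2. The log2 change was 0.57 in UPF1/XRN1 over XRN1, with a ratio of reads of 1.64 (1.41 to 1.92), and 0.47 in SMG6/XRN1 over XRN1, with a ratio of 1.54 (1.31 to 1.81). In XRN1 over control it was 0.23, with a ratio of 1.25 (1.04 to 1.497).

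The 6 BBC3 isoforms all had signal, and their orders differed. ENST00000300880, with the largest mean signal and 303 coding bases, had 547 in UPF1/XRN1, 485 in SMG6/XRN1, 305 in XRN1 and 358 in control. ENST00000598636, of the retained intron type, ran the other way and was highest in XRN1, with 72.8 in UPF1/XRN1, 120 in SMG6/XRN1, 231 in XRN1 and 70.8 in control. Its ratios of reads over XRN1 were 0.322 (0.183 to 0.545) in UPF1/XRN1 and 0.516 (0.316 to 0.824) in SMG6/XRN1. ENST00000341983, which codes for a protein from 393 bases, had 501 in UPF1/XRN1, 413 in SMG6/XRN1 and 193 in XRN1 and was listed at 0 in control. ENST00000449228, with 783 coding bases, had 127 in UPF1/XRN1 and 223 in SMG6/XRN1, was listed at 0 in XRN1 and had less than 1 read in control. ENST00000439096, with 579 coding bases, had 479 in UPF1/XRN1, 359 in SMG6/XRN1, 317 in XRN1 and 423 in control. For ENST00000439096 the ratios over control were 1.13 (0.871 to 1.47) in UPF1/XRN1 and 0.852 (0.635 to 1.14) in SMG6/XRN1, with intervals that include 1. The authors' NMD mark is on 3 of the 6 isoforms, 2 of which were listed at 0 in control.

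TP53INP1 encodes a protein that promotes p53 activity and autophagy. Its level was 1.14 FPKM in UPF1/XRN1, 1.39 in SMG6/XRN1, 0.728 in XRN1 and 2.08 in control. It was the lowest of the 8 genes, and its estimated reads were 280 in UPF1/XRN1, 300 in SMG6/XRN1, 155 in XRN1 and 459 in control. The log2 change in XRN1 over control was -0.84 on the FPKM + 1 scale, not called, whereas the ratio of reads was 0.355 (0.294 to 0.427) and passed 2-fold. In UPF1/XRN1 over XRN1 the log2 change was 0.31, with a ratio of 1.66 (1.36 to 2.03), and in SMG6/XRN1 over XRN1 it was 0.47, with a ratio of 2.03 (1.67 to 2.48). Each co-depleted library stayed below control, with ratios of 0.589 (0.506 to 0.685) in UPF1/XRN1 and 0.721 (0.621 to 0.836) in SMG6/XRN1.

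Both TP53INP1 isoforms with signal code for protein, and they divided the gene differently in each library. ENST00000448464, with 492 coding bases, held 84.7% of the signal in UPF1/XRN1, 26.9% in SMG6/XRN1, 75.9% in XRN1 and 50.6% in control. ENST00000342697, with 720 coding bases, had signals of 159 in UPF1/XRN1, 932 in SMG6/XRN1, 151 in XRN1 and 873 in control. The longer reading frame was thus low in UPF1/XRN1 and XRN1 and high in SMG6/XRN1 and control.

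**Figure D3:**
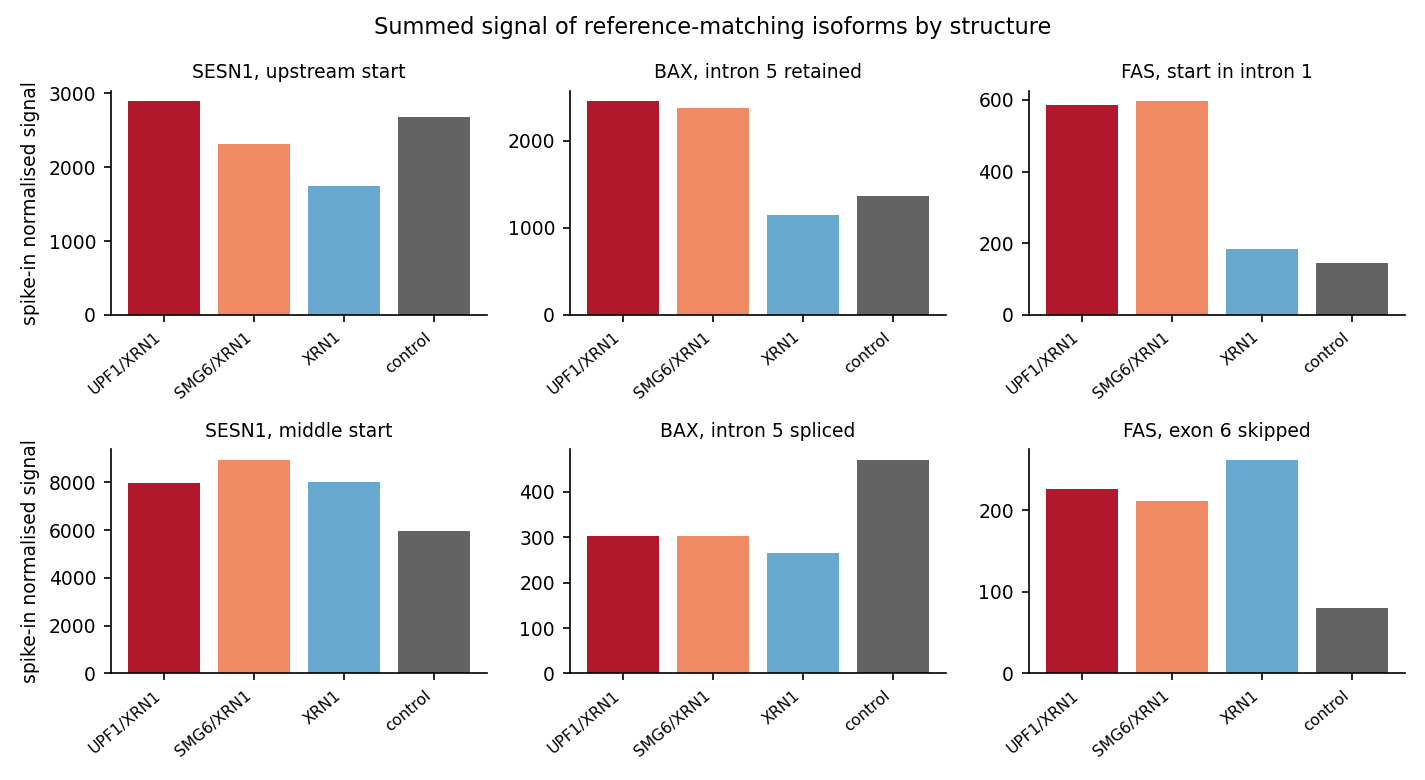
Summed spike-in normalised signal (y axis, linear, from 0, with its own range in each panel) of reference-matching isoforms grouped by structure, 1 bar per library with no error bars. The FAS isoforms that start in intron 1 had 586 and 596 in UPF1/XRN1 and SMG6/XRN1 against 183 and 145 in XRN1 and control, whereas FAS isoforms that skip exon 6 were highest in XRN1, at 262.

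Of the 90 isoforms of the 8 genes, 62 had signal in some library and 28 were listed at 0 in all 4. The authors' NMD mark was on 16 of the 90 (17.8%), against 14.0% of the whole table, and on 25.8% of those with signal, against 22.8% of the whole table. Of the 16, 9 were listed at 0 in control, as were 12300 of the 28034 marked isoforms of the whole table. A mean signal of at least 30.9 was reached by 42 of the 90. Among these 42, 18 were called higher in UPF1/XRN1 over XRN1 (27.1% of all isoforms over that filter) and 2 lower (11.5%). In SMG6/XRN1 over XRN1, 17 were called higher (25.1% of all) and 2 lower (9.3%). In XRN1 over control, 5 were called higher (24.3% of all) and 13 lower (12.6%). Each of these comparisons shares the XRN1 library. Without that library, UPF1/XRN1 over control called 15 of the 42 higher (35.5% of all) and 5 lower (10.3%). SMG6/XRN1 over control called 10 of the 42 higher (35.2% of all) and 5 lower (8.52%). An isoform can pass this filter through 1 library in which it is high.

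The other genes of the p53 pathway were set beside the 8. A list of 36 other p53 targets had 35 genes in the gene table, of which 32 were tested. Their median log2 change was 0.06 in XRN1 over control, 0.33 in SMG6/XRN1 over XRN1 and 0.36 in UPF1/XRN1 over XRN1, against 0.14, 0.12 and 0.02 for all tested genes. None was called in XRN1 over control or in SMG6/XRN1 over XRN1. In UPF1/XRN1 over XRN1, 1 was called higher, SESN2, a relative of SESN1, with 23.1 FPKM in UPF1/XRN1, 13.5 in SMG6/XRN1, 10.3 in XRN1 and 6.03 in control (log2 change 1.09). Over control, 5 were called higher in each co-depletion (15.6%, against 10.2% of all tested genes in UPF1/XRN1 and 9.3% in SMG6/XRN1), and 0 lower. EDA2R, GADD45A, PIDD and SESN2 were among the 5 in each, with PHLDA3 in UPF1/XRN1 and GLS2 in SMG6/XRN1. Both comparisons share the control library.

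The growth arrest gene GADD45A showed the order of CDKN1A, with 156 FPKM in UPF1/XRN1, 104 in SMG6/XRN1, 79.6 in XRN1 and 49.96 in control. BTG2, an antiproliferative cofactor of mRNA deadenylation, differed between control and the rest, with 31.0 FPKM in UPF1/XRN1, 31.5 in SMG6/XRN1, 27.7 in XRN1 and 15.6 in control. DDB2, a DNA repair factor, was higher in both co-depleted libraries, as FAS was, with 19.8 FPKM in UPF1/XRN1, 19.7 in SMG6/XRN1, 13.0 in XRN1 and 12.6 in control. Cyclin G2 (CCNG2) shared the low point of MDM2 in XRN1, with 5.88 FPKM in UPF1/XRN1, 6.67 in SMG6/XRN1, 4.28 in XRN1 and 7.22 in control. PMAIP1, which encodes the BH3-only protein NOXA, lay within 220 to 293 FPKM, and CYFIP2 had a log2 change of -0.40 in UPF1/XRN1 over XRN1.

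MDM4, the relative of MDM2 that inhibits p53, had 19.2 FPKM in UPF1/XRN1, 16.1 in SMG6/XRN1, 15.1 in XRN1 and 7.07 in control. MDM4 was thus lowest in control and was called higher in UPF1/XRN1 over control (log2 change 1.32) and in SMG6/XRN1 over control (1.08). Of the 15 p53 regulators tested, ATR, the kinase of replication stress, was also called higher in SMG6/XRN1 over control (1.17), and PRKDC, the catalytic subunit of DNA-PK, was called lower in UPF1/XRN1 over control (-1.04). RPL11, a ribosomal protein that binds MDM2, had a log2 change of -0.55 in UPF1/XRN1 over XRN1, with 2104 FPKM in UPF1/XRN1 and 3079 in XRN1.

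Cell cycle genes that are repressed through p21 had list medians near 0. Of 20 listed, 19 were tested. Their median log2 changes were -0.01 in XRN1 over control, -0.00 in SMG6/XRN1 over XRN1 and 0.05 in UPF1/XRN1 over XRN1. For all tested genes these medians were 0.14, 0.12 and 0.02, and 3, 3 and 10 of the 19 lay above them. None was called in those 3 comparisons. Over control the list medians were -0.02 in UPF1/XRN1 and -0.01 in SMG6/XRN1, against 0.15 and 0.25 for all tested genes. Above these lay 7 and 1 of the 19. Survivin (BIRC5), an inhibitor of apoptosis, had 104 FPKM in UPF1/XRN1, 70.2 in SMG6/XRN1, 60.1 in XRN1 and 59.1 in control. It was highest in UPF1/XRN1 and had the largest log2 change of the 19 in UPF1/XRN1 over XRN1 (0.78). A link to the level of CDKN1A was not tested. Topoisomerase IIα (TOP2A) ran the other way, with 214 FPKM in UPF1/XRN1, 286 in SMG6/XRN1, 287 in XRN1 and 336 in control. CDC25C, a phosphatase that starts mitosis, was called higher in UPF1/XRN1 over control, with a log2 change of 1.07.

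**Figure D4:**
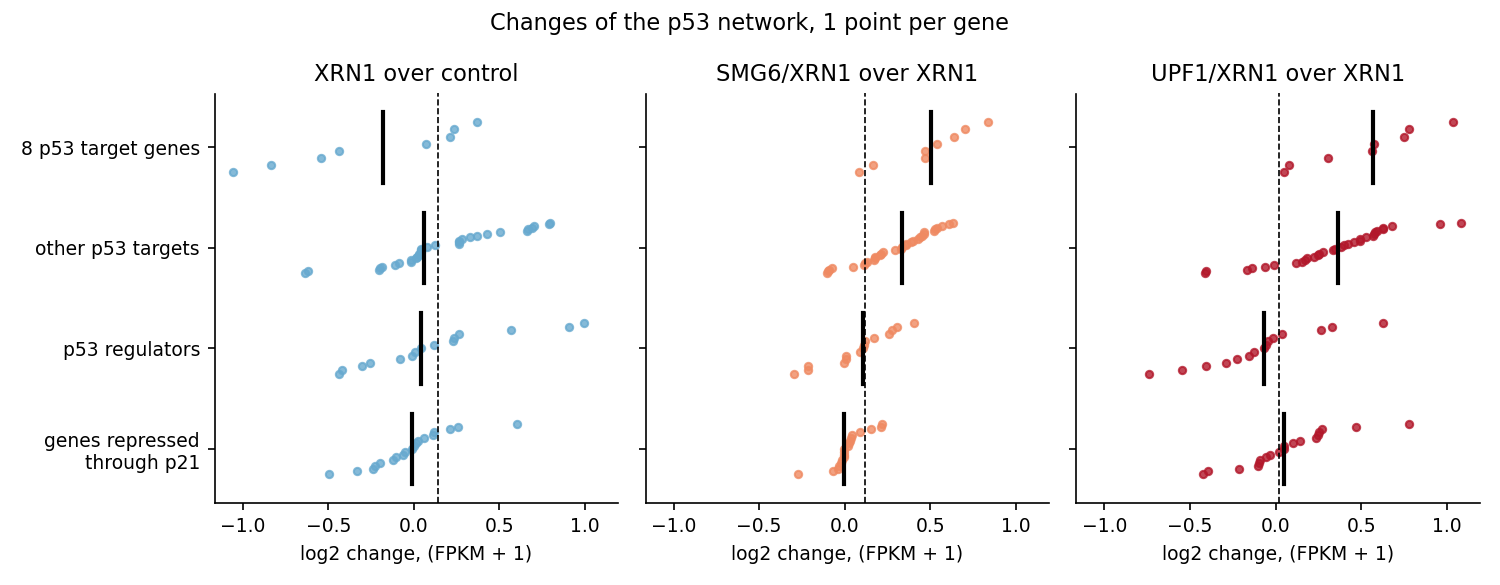
Log2 change of FPKM + 1 (x axis) in 3 comparisons that share the XRN1 library, with 1 point per gene for the 8 p53 target genes, 32 other p53 targets, 15 p53 regulators and 19 genes repressed through p21. Thick bars are list medians and dashed lines the median of all tested genes. In UPF1/XRN1 over XRN1 the medians were 0.57 for the 8 genes, 0.36 for the other targets, -0.07 for the regulators and 0.05 for the genes repressed through p21.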

How the data were processed

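Cytoplasmic poly(A)+ RNA was released with digitonin and sequenced from ScriptSeq v2 libraries, 1 for each of 4 siRNA treatments, and samples were grouped by their labels. The 5'-end and CAGE libraries were not used here. The submitters' processing notes name Cufflinks 2.0.2, TopHat2 2.0.6, Bowtie 0.12.7, CASAVA 1.8.2 and hg19 without roles. Gene values are the FPKM per assembled locus that the authors deposited. Isoform values are a signal that the authors deposited as spike-in normalised, with no account of the spike-in in the sources used here. Identifiers, class codes and the NMD mark are further columns that the authors deposited. No source used here says whether counting used strand, which leaves overlapping genes uncertain.

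The most frequent low signal was 3.72, 4.25, 4.05 and 3.85 in UPF1/XRN1, SMG6/XRN1, XRN1 and control. It was taken as the value of 1 read, and signals were divided by it to estimate reads. Estimates for single isoforms were often not whole and were rounded to whole reads for the intervals. Reads are divided among isoforms by estimate, so no count test was run. The interval code was tested on simulated data. Genes below a mean of 1 FPKM were left out of the gene comparisons. The members and lists were chosen with earlier results of these data known. Of each other list, the text names some of the 3 highest and 3 lowest genes in XRN1 over control and in each co-depletion over XRN1, provided their mean was 5 FPKM or more. Some items that this rule picks out are left out of the text. The genes it names as past 2-fold against control were named after their values were seen. Isoform types and structures come from GENCODE 29 by transcript identifier, where the authors' class code gives a full match, and promoter windows from RefSeq. No hg19 coordinate is printed.

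Alternatives were a pseudocount of 0.1, no filter, a filter at a mean of 5 FPKM, a 1.5-fold threshold, isoform signals summed per gene, centring on all tested genes and, added after seeing the data, estimated reads scaled to the library total. Python 3.11.15, pandas 2.3.3, NumPy 2.4.6 and SciPy 1.17.1 were used.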

Additional observations from a re-analysis of the deposited data

How the results depend on the processing

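No paired analysis was possible because each treatment had 1 RNA-seq library. For the same reason no library was left out in turn. Of 160 values of single genes under alternatives, 7 changed sign, 15 lay past 2-fold on one side only and 89 stayed within the counting interval. No called change reversed.

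Where the filter was a mean of at least 5 FPKM, which leaves 6 of the 8 genes, the median log2 change was 0.56 in UPF1/XRN1 over control, 0.50 in SMG6/XRN1 over control and 0.14 in XRN1 over control, the last with its sign turned. With isoform signals summed per gene, the median was 0.72 in UPF1/XRN1 over XRN1, 0.64 in SMG6/XRN1 over XRN1, 0.47 in UPF1/XRN1 over control and 0.48 in SMG6/XRN1 over control. Centred on the median of all tested genes, it was 0.14 in UPF1/XRN1 over control, 0.030 in SMG6/XRN1 over control and -0.32 in XRN1 over control. With summed isoform signals, 2 genes were called higher in UPF1/XRN1 over control (16.5% of all tested genes on that measure), 2 in SMG6/XRN1 over control (17%) and 1 in SMG6/XRN1 over XRN1 (3.49%). At a 1.5-fold threshold, 3 were called higher in each of the 4 comparisons of a co-depletion with XRN1 or control, where all tested genes gave 10% in UPF1/XRN1 over XRN1, 7.67% in SMG6/XRN1 over XRN1, 23% in UPF1/XRN1 over control and 24.5% in SMG6/XRN1 over control.

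TP53INP1 was past 2-fold lower in XRN1 over control with a pseudocount of 0.1 (-1.40), with summed isoform signals (-1.49) and in estimated reads scaled to the library total (-1.45), and ZMAT3 was past 2-fold lower over control in both co-depletions under the same 3 alternatives and after centring (-1.05 to -1.30). The pseudocount of 1 damps low values, and TP53INP1 and ZMAT3 were the lowest of the 8 genes by mean FPKM. Isoform values rest on few reads in places, and a value listed at 0 cannot be told from a failed estimate.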

Other observations

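The isoforms of MDM4 were not described above and had different orders. The largest, which has a junction outside the reference, had a spike-in normalised signal of 13035 in UPF1/XRN1, 12578 in SMG6/XRN1, 9073 in XRN1 and 3978 in control. The reference-matching isoform ENST00000367182 stayed within 1341 to 1566 in the 4 libraries. ENST00000367179 had 151 in UPF1/XRN1, 206 in SMG6/XRN1, 2558 in XRN1 and 127 in control, so it was high in XRN1 alone.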
